A study of Homo sapiens with 7 samples.

Results

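Iron transport and storage genes were examined in HepG2, a human liver cancer cell line with hepatocyte features, as 10 genes chosen by name from the 22118 named loci on chromosomes 1 to 22, X and Y in an RNA-Seq table of 30032 loci. The genes are TF, CP, TFRC, TFR2, SLC11A2, SLC40A1, HAMP, HFE, FTH1 and FTL, and each symbol was found at 1 locus. They were proposed with earlier results of these data in view, so their expression levels are given as a description. The labels name no treatment of the cells, and 7 samples were made from them, 1 by RNA-Seq, 1 by native MNase-Seq and 5 by ChIP-Seq, with antibodies to H3K27ac, H3K9ac, H3K4me3, H3K9me3 and H3K27me3. Each assay had a single sample, so the design allows no test between groups. Native MNase-Seq digests chromatin without crosslinking and shows where single nucleosomes sit. The ChIP-Seq peaks were assigned by the authors to these positions, which gives the set of histone marks on each nucleosome.

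The liver is the organ that senses and stores the body's iron. Hepatocytes secrete transferrin (TF), which carries iron in plasma, and ceruloplasmin (CP), a copper ferroxidase that oxidises iron for loading onto transferrin. Cells take up loaded transferrin through transferrin receptor 1 (TFRC), and the transporter DMT1 (SLC11A2) moves the released iron out of the endosome. Ferritin, a shell of heavy (FTH1) and light (FTL) chains, holds the surplus, and ferroportin (SLC40A1) is the known exporter of iron ions from cells. The hormone hepcidin (HAMP) closes that export by binding ferroportin, and transferrin receptor 2 (TFR2) and HFE are membrane proteins through which hepatocytes adjust hepcidin to circulating iron. H3K4me3, H3K9ac and H3K27ac mark active promoters, and a nucleosome with all 3 is called trivalent or "T" here, with or without further marks. H3K27me3 and H3K9me3 are marks of repressed chromatin, and H3K27ac without H3K4me3 is common at enhancers.

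Promoter sequences are shown for HAMP, TFRC, FTL and TF, in which ATAAA was found close to a start, as 250 bases before a start in the RefSeq table of GRCh38.p14, written 5′ to 3′ on the strand of the gene. Entries were matched for 7 of the 10 genes, with 11 starts in all. Capitals mark 4 sets of letters that were searched. ATAAA was searched on the gene's strand as a TATA-like box, with all of its bases 20 to 40 bases before the start. The others were searched on both strands. They were GGCGCC as the core letters of a BMP-responsive element, TTCNNNGAA as those of a STAT site and ACGTG as those of a hypoxia-response element. No matches overlapped each other in the sequences shown.
HAMP (chr19:35282278-35282527, plus strand): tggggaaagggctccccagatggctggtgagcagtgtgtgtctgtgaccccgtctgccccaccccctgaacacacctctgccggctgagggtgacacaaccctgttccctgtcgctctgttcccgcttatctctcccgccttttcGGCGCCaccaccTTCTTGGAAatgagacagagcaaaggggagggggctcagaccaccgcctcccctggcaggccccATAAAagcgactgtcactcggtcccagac
TFRC (chr3:196082091-196082340, minus strand): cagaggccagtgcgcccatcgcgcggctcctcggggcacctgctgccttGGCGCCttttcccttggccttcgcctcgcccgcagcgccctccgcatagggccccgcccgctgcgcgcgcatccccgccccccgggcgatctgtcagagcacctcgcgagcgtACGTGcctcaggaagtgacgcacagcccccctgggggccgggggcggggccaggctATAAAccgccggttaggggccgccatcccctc
FTL (chr19:48965059-48965308, plus strand): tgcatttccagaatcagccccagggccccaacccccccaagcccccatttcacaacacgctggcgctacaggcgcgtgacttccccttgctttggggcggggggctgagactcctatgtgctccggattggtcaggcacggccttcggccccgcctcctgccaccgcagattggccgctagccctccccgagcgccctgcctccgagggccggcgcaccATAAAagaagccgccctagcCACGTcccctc
TF, start B (chr3:133746143-133746392, plus strand): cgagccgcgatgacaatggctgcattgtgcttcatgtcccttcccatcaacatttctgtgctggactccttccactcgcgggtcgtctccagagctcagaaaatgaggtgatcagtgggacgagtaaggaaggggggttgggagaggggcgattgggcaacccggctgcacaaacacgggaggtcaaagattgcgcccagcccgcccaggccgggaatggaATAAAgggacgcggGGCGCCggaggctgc
TF, start A (chr3:133661748-133661997, plus strand): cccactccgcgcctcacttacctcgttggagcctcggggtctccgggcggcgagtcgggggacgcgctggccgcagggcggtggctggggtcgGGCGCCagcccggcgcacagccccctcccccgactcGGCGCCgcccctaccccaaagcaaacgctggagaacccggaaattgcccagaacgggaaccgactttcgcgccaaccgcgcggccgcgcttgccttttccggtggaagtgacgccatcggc

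HAMP and TFRC each held 3 of the 4 sets of letters. HAMP had GGCGCC from 105 to 100 bases, TTCTTGGAA from 93 to 85 bases and ATAAA from 29 to 25 bases before the start. The BMP and STAT routes are the known inducers of hepcidin, by iron and by inflammation. In all 35116 promoters of the table, GGCGCC was found in 16.4%, TTCNNNGAA in 6.57%, ACGTG in 18.5% and ATAAA at that place in 4.45%. ATAAA stood 29 to 25 bases before start B of TF, 32 to 28 before that of TFRC and 31 to 27 before that of FTL. It was not found at the entries of SLC11A2, SLC40A1 and HFE, nor at start A of TF. Other forms of a TATA-like box were not searched, so these entries may hold one. TATAAG stands near the start in the entry of SLC40A1, and TATATA in an entry of SLC11A2. GGCGCC was also found in TFRC and at both starts of TF, and ACGTG was found in TFRC, HFE and FTL. A match gives letters only and shows no bound factor. The promoters differed in base composition. That of SLC40A1 had 77.2% G and C and 38 CpG, and that of HFE had 51.2% and 6 CpG, against medians of 58.0% and 11 CpG over all promoters. HAMP had 62.4% and 10 CpG. Start A of TF had 72.4% and 34 CpG, and start B had 60.8% and 17 CpG.

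All other coordinates are of hg19, the build that the submitters' processing notes list. The RNA-Seq table gives the extent of each locus, and its upstream end is called the listed start here. That extent can cover overlapping genes, so the listed start need not be where transcription begins. FTH1 was listed with the same extent as BEST1, FTL with that of GYS1 and CP with that of HPS3, and the other 7 genes had an extent of their own. The sources used here do not say whether reads were counted by strand, so the levels of these 3 genes may include reads of the gene they overlap. Positions were counted in the listed locus plus 20 kb on either side. A marked stretch is a run of marked positions at most 1 kb apart, and the main stretch of a gene is the one with most "T" among those with no position within 2 kb of the listed start of another named locus.

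The cells carried RNA of hepatocyte marker genes. All 8 hepatocyte markers examined had an FPKM of 1 or more, from 56.6 for FGB to 10011 for ALB. They included AFP, at 3798. FPKM counts fragments per length of transcript and per size of the library, so levels can be compared roughly between genes. That scaling does not correct for reads shared with overlapping or near-identical genes. None of the 3 leukocyte, 3 endothelial and 3 erythroid markers reached 1. Of the macrophage markers, CD68, a lysosomal protein of many cells, had 543, while CD163 and MARCO were at 0.0268 and 0.0336. Of 3 stellate cell or fibroblast markers, COL1A2 and PDGFRB reached 1, and the higher of them, PDGFRB, was at 2.06 and 1.95 in the 2 columns of the RNA sample. The part of other cells in the iron genes' levels was not tested.

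Each of the 10 iron genes had an FPKM of 1 or more, where 51.4% of all named loci did. They spanned from an FPKM of 2.49 for HFE to 8062 for FTL, a ratio of 3233. Together they held 1.33% of the summed FPKM in run 1 and 1.17% in run 2, as the columns of the RNA sample are called here. That sum was 857059 in run 1 and 982212 in run 2, so no change in the genes' RNA is read from these shares. The sources used here do not say if the runs came from different cultures. The median of the 10 genes was 115, and that of all named loci at 1 or more was 11.9.

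**Figure D1:**
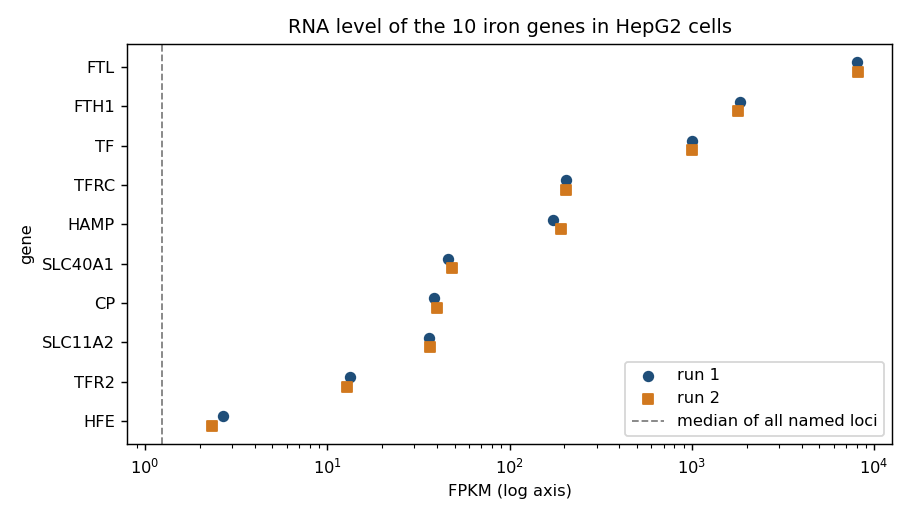
FPKM on a log axis for the 10 genes, with a circle for run 1 and a square for run 2 of the single RNA sample, and the median of all named loci (1.24) as a dashed line. FTL, FTH1 and TF lie at the top, between 1005 and 8119, and HFE is the lowest, at 2.67 and 2.32.

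The storage genes had the most RNA. FTL, the light chain of ferritin, was at 8005 in run 1 and 8119 in run 2 and ranked 13 of all 30032 loci. FTH1, the heavy chain with the ferroxidase site, was at 1838 and 1787 and ranked 43. The light chain was thus 4.35 times the heavy chain in run 1 and 4.54 times in run 2. Both chains have processed pseudogenes whose reads may be shared with them. Of these, FTH1P3 was listed at an FPKM of 0.311 and FTLP10 at 0.0305, and the sources used here do not say how reads of near-identical copies were assigned.

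The carriers lay far apart from each other. TF was at 1005 and 1006, rank 99, and CP was at 38.4 and 40.2, rank 2069. The ratio of TF to CP was 26.2 in run 1 and 25.6 for the means of both runs. The receptors were also far apart. TFRC was at 204 and 203, rank 345, and TFR2, the receptor that is largely limited to liver and erythroid cells, was at 13.4 and 12.8, rank 5400. TFRC was 15.2 times TFR2 in run 1 and 15.9 times in run 2.

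HAMP, the hormone gene, was at 174 and 192, rank 393, and so near TFRC. Its target SLC40A1 was at 46.2 and 48.4, and SLC11A2, which brings iron into the cytosol, was at 36.3 and 36.6. HFE was the lowest, at 2.67 and 2.32, above 54.6% of named loci. The ratio between the runs was largest for HFE, at 1.15. Over named loci at 1 or more, the absolute log2 ratio between the runs was 0.062 at the median and 0.207 at the 90th percentile. The order of the 10 genes was the same in both runs. On the log2 scale, 2 neighbouring pairs in that order lay closer than this 90th percentile, TFRC over HAMP by 0.15 and CP over SLC11A2 by 0.11. The values of these pairs did not overlap between the runs. Gaps of this size lie within the spread between the runs over named loci, so the order within these pairs is not taken as firm.

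In the chromatin data, 1.43% of 14217405 nucleosome positions carried a mark and 0.302% were "T". A position is called unmarked here where the deposited lists hold no peak for it, and these lists may not hold every call of the study. In the windows of the 10 genes, 239 of 3906 positions were marked, 6.12% (exact 95% interval, 5.39 to 6.92). This was 3.001% in the windows of all named loci at an FPKM of 1 or more, which were not matched to the 10 genes in RNA level or length. "T" was at 83 positions, 2.12% (1.70 to 2.63), against 1.07% in those windows. The intervals cover counting error only, and neighbouring nucleosomes are not independent. Of the marked positions, 70 (29.3%) lay nearer to the listed start of another named locus than to that of the iron gene.

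**Figure D2:**
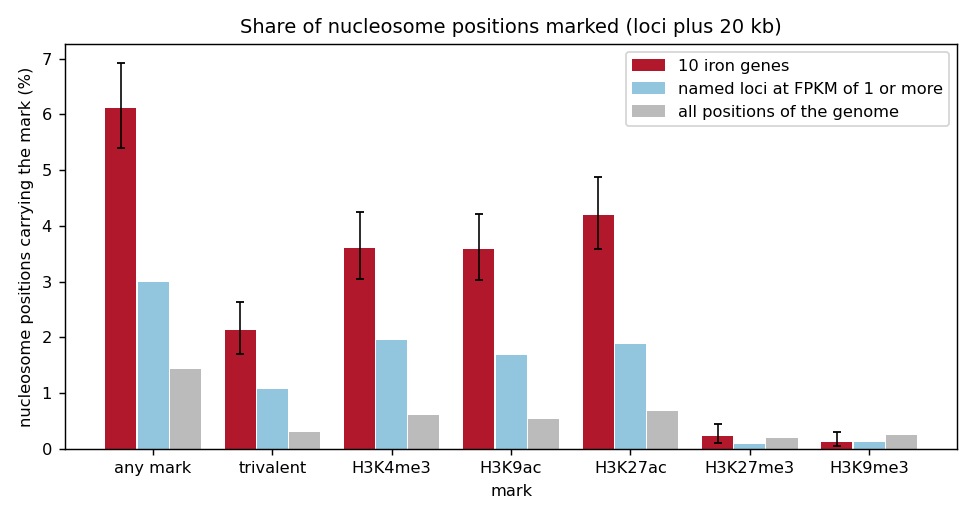
Share of nucleosome positions (%) with any mark, with "T" and with each of the 5 marks, in the windows of the 10 genes (with exact 95% intervals), of named loci at an FPKM of 1 or more, and in the genome. H3K27ac was at 4.199%, 1.87% and 0.674%, and H3K9me3 was at 0.128%, 0.113% and 0.243%.

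Of the single marks, H3K27ac was the most frequent, at 164 positions (4.199%, 3.59 to 4.88), against 1.87% in windows of named loci at 1 or more. H3K4me3 was at 141 positions (3.61%) and H3K9ac at 140 (3.58%), against 1.95% and 1.69%. H3K27me3 was at 9 positions, 0.230% (0.105 to 0.437) against 0.0866%, and 7 of the 9 were in the windows of CP and TFR2. H3K9me3 was at 5 positions, 0.128% (0.0416 to 0.298) against 0.113%. By gene, the share of marked positions ran from 2.08% (0.901 to 4.05) for TFRC to 10.7% (7.69 to 14.4) for FTL. FTH1 had 9.20% and HAMP 8.76%. TFRC had the fourth highest RNA level and yet only 8 marked positions in its window.

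All 10 genes had a "T" in the window, which 95.8% of named loci at an FPKM of 1 or more also had. Within 2 kb of the listed start, 8 of 10 had a "T", where 72.0% of such loci did. The exceptions were TF and SLC11A2. H3K27me3 was found in the windows of 4 genes, where the share for such loci was 29.4%, and H3K9me3 in those of 4 genes, where it was 35.3%. These shares of genes are near the background, and no difference of the iron genes from other expressed loci is read from them.

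**Figure D3:**
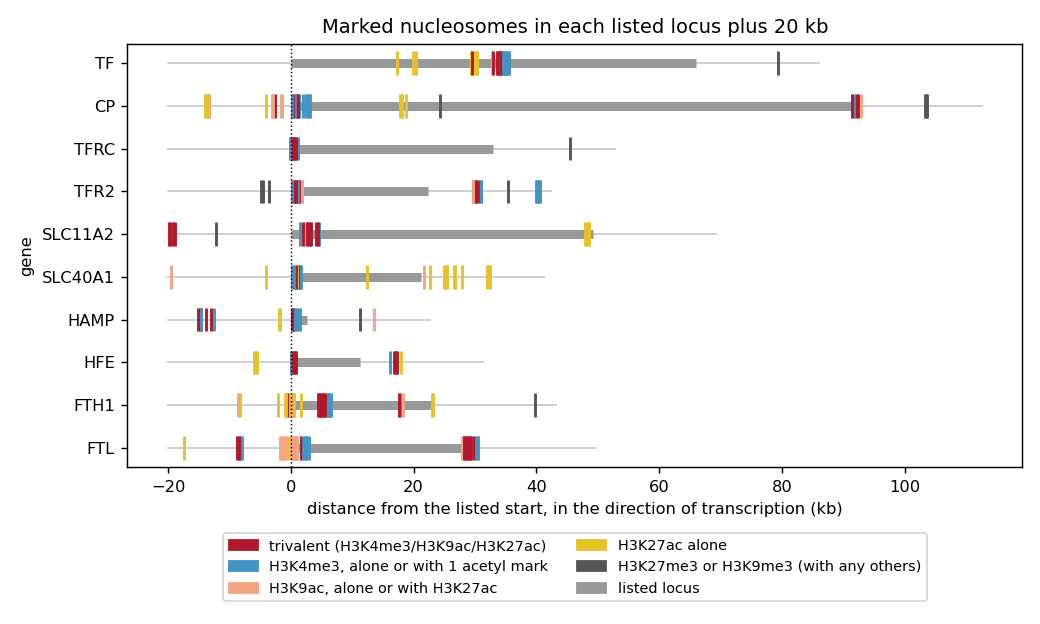
Marked nucleosomes (ticks, coloured by their marks) over the listed locus (grey bar) plus 20 kb, by distance from the listed start in kb in the direction of transcription. The "T" of TF lie 29.6 to 34.4 kb inside the locus, and those of FTH1 mostly 4.5 to 5.6 kb inside, while those of the other 8 genes lie within 5 kb of the listed start or at the start of a neighbour.

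TF was the gene whose marked start stood farthest from the listed one. The locus was listed at chr3:133431849-133497850 on the plus strand, and no position within 2 kb of the listed start was marked. The main stretch began 32766 bp downstream, at chr3:133464545-133467406, and held 15 nucleosomes that were all marked. In the 5′ to 3′ direction they were H3K9ac/H3K27ac, 7 "T", H3K4me3/H3K9ac, 2 with H3K4me3, 3 with H3K4me3/H3K9ac and a last one with H3K4me3. The fifth "T" also carried H3K9me3. It was the only position with a repressive mark in the main stretches of the 10 genes. Upstream of this stretch, 8 further positions lay between 17253 and 30348 bp from the listed start, 7 with H3K27ac alone and 1 with "T". The listed start and the marked stretch are thus distinct, and which of the RefSeq starts printed above is the marked one was not placed, since their builds differ. FTH1 was the other gene with a main stretch over 2 kb from the listed start, so 2 of 10 did so, where 42.5% of named loci at an FPKM of 1 or more with a main stretch did. Among loci with an extent of their own this share was 19.9%. A distance over 30 kb, as in TF, was found in 18.9% of named loci at 1 or more with a main stretch.

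CP was listed at chr3:148847347-148939918 on the minus strand, the extent of HPS3 on the other strand. The stretch at the CP end held 12 marked positions of 15, from 171 to 3071 bp downstream of the listed start. Its 4 "T" were followed by 6 nucleosomes with H3K4me3 alone. With gaps of at most 500 bp the stretch held 7 marked positions and ended at 1406 bp, and with gaps of 2000 bp it held 18. A further stretch of 6 marked positions with 1 "T" lay 1416 to 4019 bp upstream. At the HPS3 end, 5 marked positions with 3 "T" lay within 2 kb of the HPS3 start, and HPS3 had an FPKM of 6.62. H3K27me3 was at 3 positions over 103 kb downstream of the CP start, past the listed end of CP and upstream of the HPS3 start.

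The receptors differed in how their starts were marked. TFRC (chr3:195776155-195809032, minus strand) had a compact stretch of 7 marked positions from 192 bp upstream to 1133 bp downstream, with H3K4me3/H3K27ac, 5 "T" and H3K4me3. It had no position with H3K27ac alone in its window, and its only other mark was H3K27me3 at 1 position 45485 bp downstream. TFR2 (chr7:100217965-100240382, minus strand), with a lower RNA level, had 11 marked positions from 120 to 1858 bp downstream, 6 of them "T". Its stretch ended with 2 H3K9ac/H3K27ac positions and 1 with H3K27ac, and so without H3K4me3. Upstream of TFR2, H3K27me3 alone was at 3 positions from 3585 to 4808 bp before the listed start. The neighbour on that side, ACTL6B, was listed at 0 in both runs. A stretch of 7 positions with 4 "T" past the end of TFR2 lay at the start of MOSPD3, which had an FPKM of 9.54. Farther on, 5 positions with H3K4me3, 1 of them also with H3K9ac and none a "T", lay at the start of PCOLCE, with an FPKM of 7.87.

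SLC11A2 (chr12:51373417-51422616, minus strand) had 1 marked position within 2 kb of the listed start, H3K4me3 at 1444 bp. Its nearest "T" was at 2019 bp, just outside the 2 kb limit. The main stretch ran to 4596 bp downstream and held 7 "T" among 10 marked of 13 positions, or 5 among 6 marked with gaps of at most 500 bp. The farthest 2 "T" were apart from the rest, at 4089 and 4474 bp. Another 4 "T" upstream, 18881 to 19821 bp from the listed start, were at the start of LETMD1, with an FPKM of 22.8. The RefSeq table had 4 starts for SLC11A2, and their promoters held from 2 to 21 CpG.

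SLC40A1 (chr2:190425292-190446473, minus strand) had the fewest "T" in its window, 2. Both were in the main stretch of 9 marked positions from 199 to 1649 bp downstream. The order was H3K4me3, H3K4me3/H3K9ac, H3K4me3, "T", H3K27ac, "T", 2 of H3K4me3/H3K9ac and H3K4me3. It had instead the most positions with H3K27ac alone, 13 of the 51 found for all 10 genes. Past the listed end of SLC40A1 lay 11 marked positions, and 10 of them carried H3K27ac alone. No other named locus had its listed start nearer to any marked position in this window.

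HAMP (chr19:35773410-35776045, plus strand), a short locus of 2636 bp, had 8 marked positions from 147 to 1557 bp downstream of its start. They were 4 "T" and then 4 nucleosomes with H3K4me3 alone. Before the start, 2 positions with H3K27ac alone lay at 1748 and 1896 bp. No position had its midpoint between 238 bp upstream and 147 bp downstream, a spacing of 385 bp that spans the listed start. The other 5 "T" of the window were at the start of USF2, 13013 to 15073 bp upstream, a transcription factor gene with an FPKM of 34.8. H3K27me3 was at 1 position, 11232 bp downstream, near the start of MAG, with an FPKM of 0.568.

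HFE (chr6:26087475-26098720, plus strand) had the shortest main stretch, with H3K4me3/H3K9ac and 4 "T" from 77 to 822 bp downstream. HFE, at an FPKM of 2.49, thus had as many "T" in its main stretch as HAMP at 183. The other 4 "T" were in a stretch from 16137 to 17937 bp downstream, at the start of the histone gene HIST1H4C, with an FPKM of 0.865. In addition, 3 positions with H3K27ac alone lay 5528 to 5943 bp upstream.

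FTH1 (chr11:61717311-61740577, minus strand) had its main stretch from 4475 to 6525 bp downstream of the listed start. It held 12 marked nucleosomes with none left unmarked, 7 "T", then 4 with H3K4me3/H3K9ac and 1 with H3K4me3. At the listed start itself, 9 marked positions from 1007 bp upstream to 545 bp downstream held 1 "T" and otherwise H3K27ac with or without H3K9ac. The listed start of BEST1, which shares the extent, had 2 positions with H3K27ac, and BEST1 was at 0.171 and 0.207.

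FTL (chr19:49467115-49496610, plus strand) had the longest main stretch of the 10 genes, 20 marked positions from 1808 bp upstream to 2902 bp downstream. Only 0.316% of named loci at an FPKM of 1 or more with a main stretch had at least as many. It held 2 "T". With gaps of at most 500 bp it held 14 marked positions and 1 "T" and ended at 1062 bp with H3K9ac/H3K27ac. In the longer stretch, the first 11 positions carried H3K27ac, 9 of them with H3K9ac and none with H3K4me3. The last 5 carried H3K4me3, 4 of them with H3K9ac and none with H3K27ac. The other 11 "T" in the window of FTL were at the starts of BAX (3) and of GYS1 and RUVBL2 (8). BAX had an FPKM of 124, RUVBL2 of 36.9 and GYS1 of 7.35. Since FTL and GYS1 share a listed extent, the GYS1 start is the far end of the listed FTL locus.

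**Figure D4:**
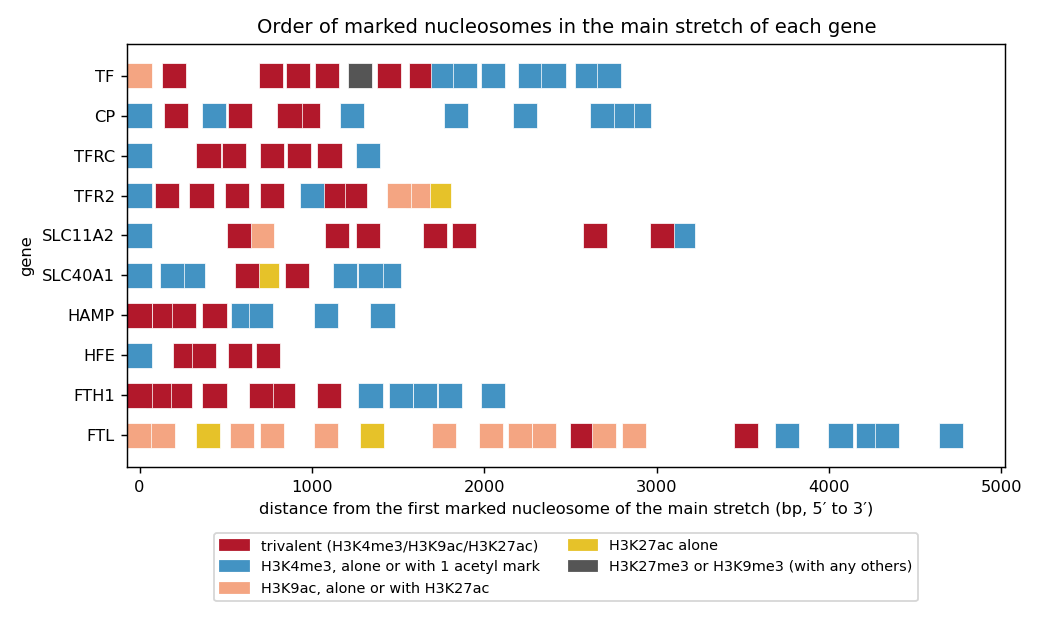
Marked nucleosomes of the main stretch of each gene as blocks of 140 bp, by distance in bp from the first marked one, 5′ to 3′, and coloured by their marks. Positions that overlap are drawn over each other. Blue blocks (H3K4me3 without all of the acetyl marks) close the stretch in 8 genes, and TF and FTL open with acetyl marks only.

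The main stretches held 109 marked of 116 positions, and 48 of them were "T". The median gene had 4.5 "T" and 10.5 marked positions, where the medians of named loci at 1 or more with a main stretch were 4 and 7. In 8 genes the last nucleosome downstream lacked H3K27ac, and in each of them it carried H3K4me3 alone. The exceptions were TFR2 and HFE. A downstream end without H3K27ac was found in 66.5% of named loci at an FPKM of 1 or more with a main stretch. The share of such loci that ended with H3K4me3 alone was not counted, so that trait has no background here. Where any overlap of at least 1 bp marked a position, SLC11A2 ended with a "T" and SLC40A1 with H3K4me3/H3K9ac. At the upstream end, 4 genes lacked H3K27ac, where 44.5% of such loci did. The widest spacing of neighbouring positions in the main stretch and 1 kb around it was 650 bp for FTL, 560 bp for TF and 500 bp for FTH1. It was 275 bp for TFR2 and between 350 and 435 bp for the other genes. As a maximum it can rise with the length of the stretch, which was longest in FTL. Named loci at an FPKM of 1 or more with a main stretch had a median of 450 bp, with a 10th percentile of 320 and a 90th of 700. Thus 3 of the 10 genes lay above the median. In TF and FTL the widest spacing lay between marked nucleosomes, and in FTH1 between unmarked ones downstream of the stretch.

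Positions with H3K27ac alone were found in 9 of 10 windows, where 63.8% of named loci at an FPKM of 1 or more had them. The median number per window was 4 for the 10 genes and 1 for such loci, whose 90th percentile was 10. They made up 1.31% of all positions in the windows of the 10 genes and 0.579% in those of such loci. Of the 51, 22 were inside the listed locus, 18 upstream of the listed start and 11 past the listed end. For 43 of them the iron gene had the nearest listed start. After SLC40A1, FTH1 had 9, CP 8 and TF 7. The 4 positions of SLC11A2 lay 47904 to 48592 bp from its start, nearest to the listed start of HIGD1C, which was at 0 in both runs.

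A wider list of 57 iron and haem genes was examined beside the 10 genes. Of these, 46 had an FPKM of 1 or more, where the share of all named loci was 51.4%. A "T" within 2 kb of the listed start was found for 31 of the 46, where 72.0% of named loci at 1 or more had it. Of the uptake genes, SLC39A14, the transporter of iron that is not bound to transferrin, was the highest at 174, and 5 of 9 were at 1 or more. STEAP4, a ferrireductase, was at 0.00813, and SCARA5, a ferritin receptor, was listed at 0. Of the export and ferroxidase genes, the haem exporter FLVCR1 was the highest at 11.8, and HEPH, the membrane homologue of ceruloplasmin, was the lowest at 0.0466.

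Of the genes of iron handling inside the cell, 8 of 9 were at 1 or more. PCBP1, an iron chaperone for ferritin, had 231, and FTMT, mitochondrial ferritin, was listed at 0. Of the 3 genes of the iron regulatory system, ACO1, which binds iron-responsive elements, was the lowest at 22.2. FBXL5, the iron-sensing adaptor in the degradation of IREB2, was the highest, at 33.7 in run 1 and 26.4 in run 2. Of the genes of hepcidin control, 13 of 16 were at 1 or more, from B2M, the partner chain of HFE, at 481. BMP2, a ligand that induces hepcidin and is made mainly by endothelial cells, was at 0.00803. All 13 genes of haem and haemoglobin handling were at 1 or more, from 5.91 for FECH, the last enzyme of haem synthesis, to 135 for HP, the plasma binder of haemoglobin. Of other secreted or surface iron binders, MFI2 (melanotransferrin) was at 2.77 and LTF (lactoferrin) at 0.0221.

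**Figure D5:**
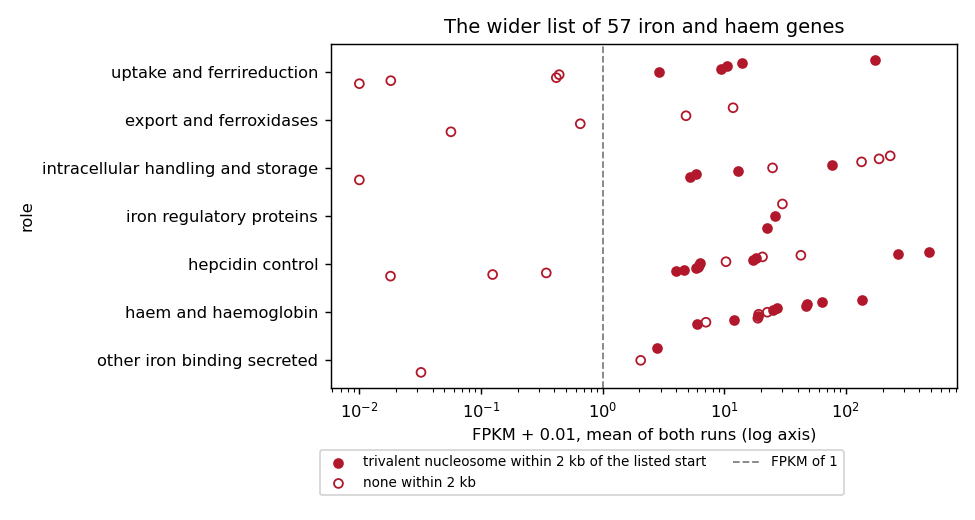
FPKM plus 0.01 on a log axis (mean of both runs) for the 57 genes of the wider list, by role, with filled circles for genes with a "T" within 2 kb of the listed start. All 31 filled circles lie above an FPKM of 1, and 6 genes lie under 0.1.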

How the data were processed

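The 10 genes and all lists were chosen with earlier results of these data known. All members, the highest and the lowest gene per role of the wider list and every gene of it under 0.1 FPKM are named, and neighbours where marked positions lay within 2 kb of their listed start. ACTL6B and HIGD1C were named after their values were seen. The authors called nucleosome positions with DANPOS and peaks at these positions with NUCLIZE, with limits of 0.01 on the P value and on the FDR and of 4-fold on enrichment. They deposited coordinates with identifiers and no heights or read counts, so the reads behind a single position or peak are unknown, although the study gives aligned reads per chromatin library. The submitters' processing notes list hg19, BWA for chromatin, and TopHat2 2.1.0, Bowtie, HOMER 4.7 and edgeR for RNA, without roles. The authors deposited FPKM in 2 columns of 1 RNA sample, in the layout of Cuffdiff, and their mean was used as 1 replicate. The authors' own fold, p-value and q-value columns compare these columns and were not used.

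Peaks were matched to positions by identifier, and each peak reached 3 bp beyond its position. Windows and distances used the midpoint of a position. Coordinates were counted from 1. The strand came from the RefSeq table for 7 genes and from the order of locus numbering for CP, TFR2 and FTH1, and both were the same for these 7. For a symbol of the wider list at more than 1 locus (5 genes), the locus with the highest FPKM was used, and erythroferrone was not analysed here. A further hepatocyte marker is not reported here. Intervals are exact (Clopper-Pearson). Counting was tested on simulated data, in which 97 of 97 planted stretches were recovered. Alternatives were other FPKM limits, single runs, windows, start distances, gaps, strand source and peak overlap. The tools were matplotlib 3.10.9, scipy 1.17.1, pandas 2.3.3, numpy 2.4.6 and Python 3.11.15.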

Additional observations from a re-analysis of the deposited data

How the results depend on the processing

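Of 32 alternatives for the counts and shares over all members or the wider list, 28 stayed within 1.5 times the reported count or within the interval of the reported share. The share of marked positions in the windows of the 10 genes was 7.13% with 10 kb around the locus and 7.64% in the locus alone. The marked positions nearer to the start of another named locus were 45 with 10 kb, in a shorter window. A main stretch over 5 kb from the listed start was found in 1 gene (TF) in place of 2 over 2 kb. The alternatives for the main stretch and for a "T" at the listed start were chosen after seeing the data. With gaps of 500 bp, 6 in place of 8 main stretches ended downstream without H3K27ac, and 3 lay over 2 kb from the listed start. Ranked among named loci at an FPKM of 0.1 or more, HFE stood above 28.3% of loci in place of 54.6%, since fewer loci were ranked. With a pseudocount of 1, differences between the runs moved by at most 0.056 on the log2 scale. No paired analysis was possible because there is 1 sample per assay. A stricter peak threshold was not run, since the peaks carry no scores. The reads behind a single peak or FPKM value are unknown, so a position without a mark may be one below the calling limits.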
